A study of Mus musculus with 2 samples.

Results

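The 39 Hox genes of the mouse array were examined in cultured newborn ureters, with and without blockade of the SHH signal transducer SMO. They were chosen by name: every non-control probe whose gene name was Hoxa, Hoxb, Hoxc or Hoxd followed by a number from 1 to 13, antisense names left out. This gave 45 probes for 39 genes, out of 39429 probes and 29995 genes on the array. Where a gene had more than 1 probe (6 genes), its brightest probe, by the mean over all channels, was used. By cluster these were 11 HoxA, 10 HoxB, 9 HoxC and 9 HoxD genes.

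Ureters of wildtype NMRI mice were taken at postnatal day 0 and cultured for 18 h. The cyclopamine group received 10 µM of cyclopamine, a plant alkaloid that binds and inhibits SMO, and the control group received solvent, which the labels give as DMF at 1 in 1000 and the methods as ethanol. Each of the 2 arrays carried RNA of a cyclopamine pool and of a control pool of several ureters in different dyes. Replicate 1 was made from females with the control in green, and replicate 2 from males with the dyes swapped, so sex, dye orientation and array cannot be told apart. A channel source name gives the inhibitor IWP-2 in place of cyclopamine, whereas titles and treatment entries give cyclopamine. RNA of whole ureters was measured, so fewer cells of a type and less RNA per cell cannot be told apart.

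Hox genes encode homeodomain transcription factors that give cells their position along the body axis. They lie in 4 clusters, and genes at the same place in different clusters form a paralog group. Low group numbers are active towards the head and high numbers towards the tail. Genes of groups 10, 11 and 13 have known parts in the development of the kidney, the genital ducts and the hindgut and bladder region. HOX proteins often bind DNA together with TALE homeodomain partners of the PBX and MEIS families, and Polycomb and Trithorax proteins keep the clusters silent or active.

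SHH target genes fell in the same hybridisations. Gli1, a transcription factor induced by SHH signaling, went from an intensity of 7771 in control to 2182 with cyclopamine on replicate 1 and from 1236 to 290 on replicate 2. Its mean log2 ratio was -1.96 (limma adjusted p = 1.76e-08), and that of the SHH receptor gene Ptch1 was -1.31 (limma adjusted p = 0.000248). Markers of urothelium (6 of 6 genes) and smooth muscle (5 of 5) were well above background in both control pools, whereas of the kidney tubule and glomerulus markers 1 of 6, the collecting duct gene Aqp2, was. Replicate 1 was the brighter array (75th percentile of control 3337, against 628), so an intensity is read within its own array. Over tested probes, log2 ratios spread with an SD of 0.46 (replicate 1) and 0.30 (replicate 2).

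Most of the Hox code was measurable in the newborn ureter. A gene counted as measured where at least 0.5 of its spots (up to 4) were flagged well above background by the scanner software. By this rule 34 of the 39 Hox genes were measured in the control channel of both arrays, or 87.2%, beside 63.9% of all genes. All 11 HoxA genes and all 9 HoxD genes were among them, with 8 of 10 HoxB and 6 of 9 HoxC genes. By position the counts were 11 of 12 anterior genes (groups 1 to 4), 10 of 11 central genes (groups 5 to 8) and 13 of 16 posterior genes (groups 9 to 13).

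**Figure D1:**
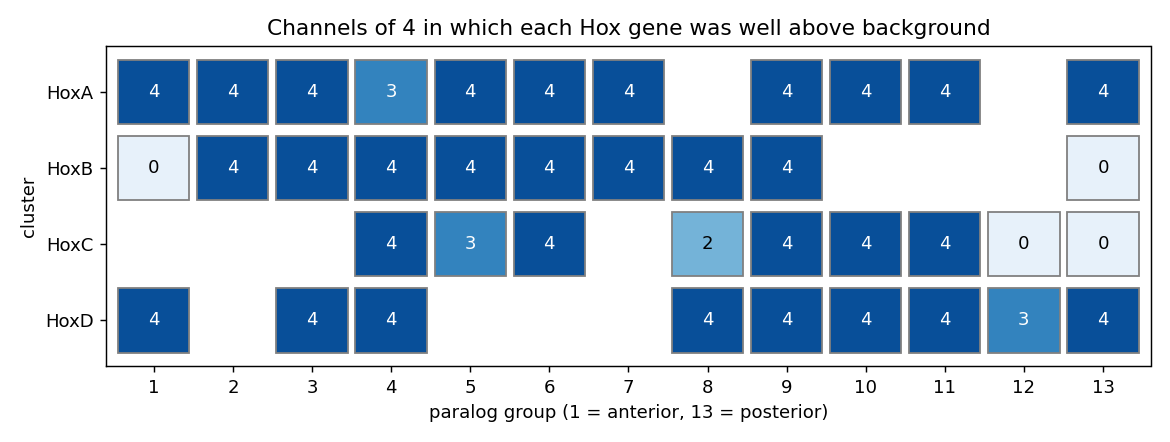
Each square is a Hox gene placed by cluster and paralog group, and its number and shade give in how many of the 4 channels (control and cyclopamine on both arrays) it was well above background. Gaps are positions of the grid for which no gene of such a name was listed, and the squares at 0 are Hoxb1, Hoxb13, Hoxc12 and Hoxc13.

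The 5 genes that were not measured in both control pools sat at the ends of their clusters, with a single exception. Hoxb1, at the anterior end of HoxB, had control intensities of 10.3 and 1.5 on replicates 1 and 2. Hoxb13, at the posterior end of HoxB, had 3.18 and 1.11. Hoxc12 and Hoxc13, the posterior end of HoxC, had 4.01 and 9.75 on replicate 1 and 1.16 and 1.20 on replicate 2. The exception was Hoxc8, a central gene, with 15.4 on replicate 1, where 0.5 of its spots were above background, and 4.54 on replicate 2, where none was. The plot of channels by cluster and paralog group shows these genes beside the filled HoxA and HoxD rows. No Hox gene was dim in both pools of a single treatment and measured in both pools of the other.

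The posterior groups with known roles in the urogenital tract were measured in all clusters that carry them, apart from group 13. In group 10, Hoxa10 had control intensities of 4169 and 717, Hoxc10 216 and 39.4, and Hoxd10 1048 and 168. In group 11, Hoxa11 had 7548 and 1375, Hoxc11 43.9 and 18.5, and Hoxd11 1159 and 147. In group 13, Hoxa13 had 960 and 144 and Hoxd13 397 and 55.6, while Hoxb13 and Hoxc13 were not measured. These intensities come from different probes, so they give no order between genes.

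With SMO blocked, limma called 1 of the 34 tested Hox genes. A gene was tested where it was measured in the control channel of both arrays or in the cyclopamine channel of both, which 34 Hox genes and 19380 genes in all were. With limma (Benjamini-Hochberg adjustment over 25975 probes, limit 0.05), 0 of 34 Hox genes were lower with cyclopamine, beside 0.867% of all tested genes, and 1 of 34 was higher, beside 0.439%. At an unadjusted limma p under 0.05, 5 Hox genes were lower (14.7%, beside 4.81% of all genes) and 1 was higher (2.94%, beside 4.22%). The lower ones were Hoxa7, Hoxc4, Hoxd11, Hoxc5 and Hoxd12. Of these, Hoxc5 and Hoxd12 had a cyclopamine channel on replicate 2 that was not well above background, and the probes of Hoxd11 disagreed. Their mean log2 ratios, in the order named, were -0.49, -0.57, -0.49, -0.54 and -0.76. With the trend of replicate 1 with gene length (given below) removed, they were -0.31, -0.56, -0.38, -0.37 and -0.58. By a filter built from the intensity and fold limits of the study (control intensity over 100 and a change of at least 1.5-fold), required here on each array and in the same direction, 0 of 22 eligible Hox genes were lower (0.63% of eligible genes) and 0 were higher (0.212%). Over so few genes, these counts of limma and filter calls cannot be set apart from the shares over all genes. They therefore say little about the Hox genes as a list. The 95% interval of the change lay within 2-fold in both directions for 30 of the 34 Hox genes, beside 94.3% of all genes.

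The gene called was Hoxd1, the most anterior gene of the HoxD cluster. Its intensity was 53.5 in control and 78.2 with cyclopamine on replicate 1, and 5.61 and 15.8 on replicate 2. Cyclopamine was thus the higher channel on both arrays, by 1.46-fold and 2.82-fold. The mean log2 ratio was 1.02 ± 0.67 (SD, n = 2; limma SE 0.24, 95% interval 0.55 to 1.49, limma adjusted p = 0.0105). The probe was dim: both control intensities were under the limit of 100 of the study, and on replicate 2 exactly 0.5 of the control spots were well above background. The call was lost in 3 of 8 other analyses, with a log2 ratio of 0.40 and a limma adjusted p of 0.616 after another background correction (normexp with an offset of 50), with 0.92 (limma adjusted p = 0.515) on the deposited series values, and with 1.02 (limma adjusted p = 0.992) when the 4 channels were separate samples. An offset of 50 is large beside these intensities and draws their ratio towards 0. With separate channels nearly all other named Hox genes also had a limma adjusted p of 0.992. Neither of these settings can therefore decide about Hoxd1.

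**Figure D2:**
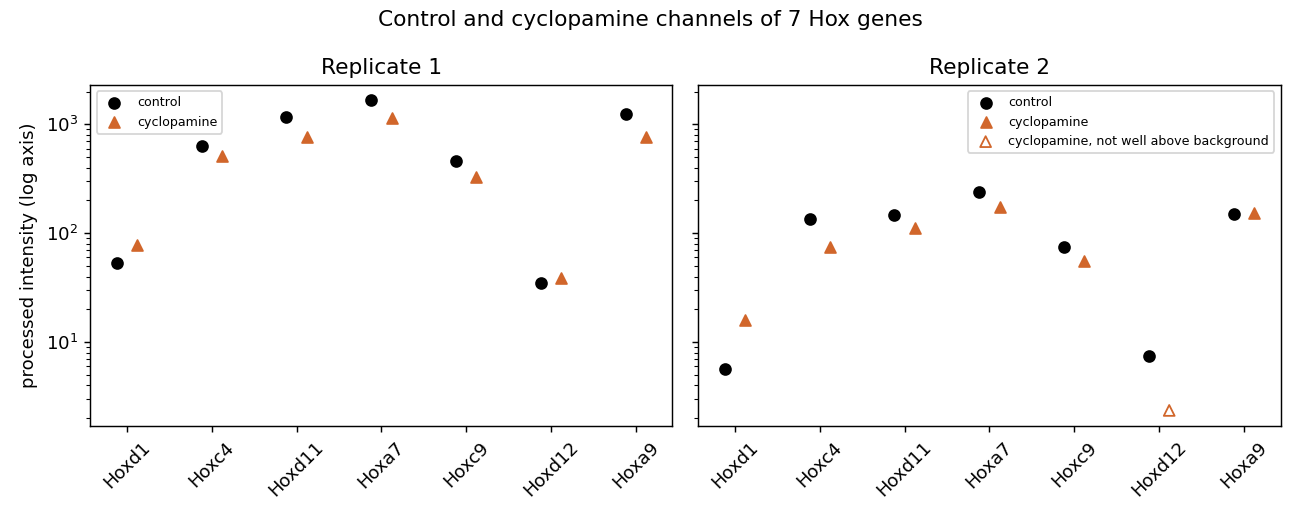
Processed intensity (log axis) in the control channel (circles) and the cyclopamine channel (triangles) of 7 Hox genes, with each array in its own panel and open symbols not well above background. Within a gene and array, Hoxd1 is higher with cyclopamine on both arrays, Hoxc4, Hoxd11, Hoxa7 and Hoxc9 are lower on both, and Hoxd12 and Hoxa9 change direction between the arrays.

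Sequences upstream of the start are shown for Hoxd1, the gene called, and for 3 of the genes with the largest decreases on both arrays. They are the 250 bases before the RefSeq start, 5′ to 3′ on the coding strand, build GRCm38.p6. For Hoxd1 they are chr2:74762730-74762979 (plus strand), for Hoxc4 chr15:103034145-103034394 (plus), for Hoxa7 chr6:52218574-52218823 (minus) and for Hoxd11 chr2:74682073-74682322 (plus), where RefSeq gives Hoxd11 a second start. Capitals mark matches to the letters searched on both strands.
Hoxd1: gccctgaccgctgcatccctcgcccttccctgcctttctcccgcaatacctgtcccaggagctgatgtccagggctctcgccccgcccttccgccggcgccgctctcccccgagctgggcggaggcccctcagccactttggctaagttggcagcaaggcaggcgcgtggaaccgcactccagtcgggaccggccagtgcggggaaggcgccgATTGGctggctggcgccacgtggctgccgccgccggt
Hoxc4: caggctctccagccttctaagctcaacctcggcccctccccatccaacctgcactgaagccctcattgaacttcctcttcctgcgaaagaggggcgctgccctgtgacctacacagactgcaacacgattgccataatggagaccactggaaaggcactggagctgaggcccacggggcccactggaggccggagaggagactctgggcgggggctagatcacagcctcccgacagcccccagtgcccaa
Hoxa7: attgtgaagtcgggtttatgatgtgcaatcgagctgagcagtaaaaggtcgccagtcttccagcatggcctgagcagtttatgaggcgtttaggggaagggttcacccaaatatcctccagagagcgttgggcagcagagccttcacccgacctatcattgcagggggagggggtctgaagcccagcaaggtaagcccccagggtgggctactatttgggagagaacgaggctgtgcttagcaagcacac
Hoxd11: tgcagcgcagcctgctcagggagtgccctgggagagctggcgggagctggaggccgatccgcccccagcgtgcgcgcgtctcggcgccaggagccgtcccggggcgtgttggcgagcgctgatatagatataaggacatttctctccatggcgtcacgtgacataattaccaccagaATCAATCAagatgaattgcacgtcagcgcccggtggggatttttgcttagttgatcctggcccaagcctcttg
The Hoxd1 stretch holds a CCAAT box, read on the other strand, 37 to 33 bases before the start. The Hoxd11 stretch holds a match to TGATTNAT, letters that HOX and PBX proteins bind together, at 73 to 66 bases, and the 250 bases before the other Hoxd11 start (chr2:74679308-74679557) held none of the letters searched. The stretches of Hoxc4 and Hoxa7 held none of the letters searched.

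Upstream sequence was listed for 22 of the 39 Hox genes, with 24 starts. The GLI motif GACCACCCA, bound by the transcription factors at the end of SHH signaling, was in 0 of the 24 stretches and in 0.225% of all 32851. TGATTNAT was in 2 (Hoxa2 and Hoxd11), beside 2.82% of all. TATAAA was in 4, beside 12.4%, and CCAAT was in 14, beside 33.8%. The median GC content was 58.6% in the Hox stretches and 52.4% in all, with a median of 12.5 CpG sites against 6.

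Decreases were small. Without a correction for gene length, those on both arrays lay mostly in HoxA (6 of 11 tested genes) and HoxC (5 of 6). HoxB had 1 of 8 and HoxD 2 of 9. On both arrays 14 of 34 tested Hox genes were lower with cyclopamine (28.9% of all genes), 5 were higher (28.6%) and 15 went opposite ways (42.4%). Over Hox genes the log2 ratio had a median of -0.25 (replicate 1) and -0.07 (replicate 2). Averaged over arrays it was -0.16, beside -0.01 for all tested genes. Replicate 1 alone had 25 of 34 lower (50.2% of all genes), and replicate 2 alone had 18 of 34 (50.1%). On replicate 1 the ratio also moved with the genomic length of the gene (Spearman 0.44 over 22515 probes, 0.04 on replicate 2), and Hox genes were short, with a median of 4044.5 bases against 21341. With this length trend removed the Hox medians were -0.01 (replicate 1) and -0.03 (replicate 2), and 8 of 34 genes were lower on both arrays. By cluster these were 3 of 11 in HoxA, 1 of 8 in HoxB, 2 of 6 in HoxC and 2 of 9 in HoxD.

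**Figure D3:**
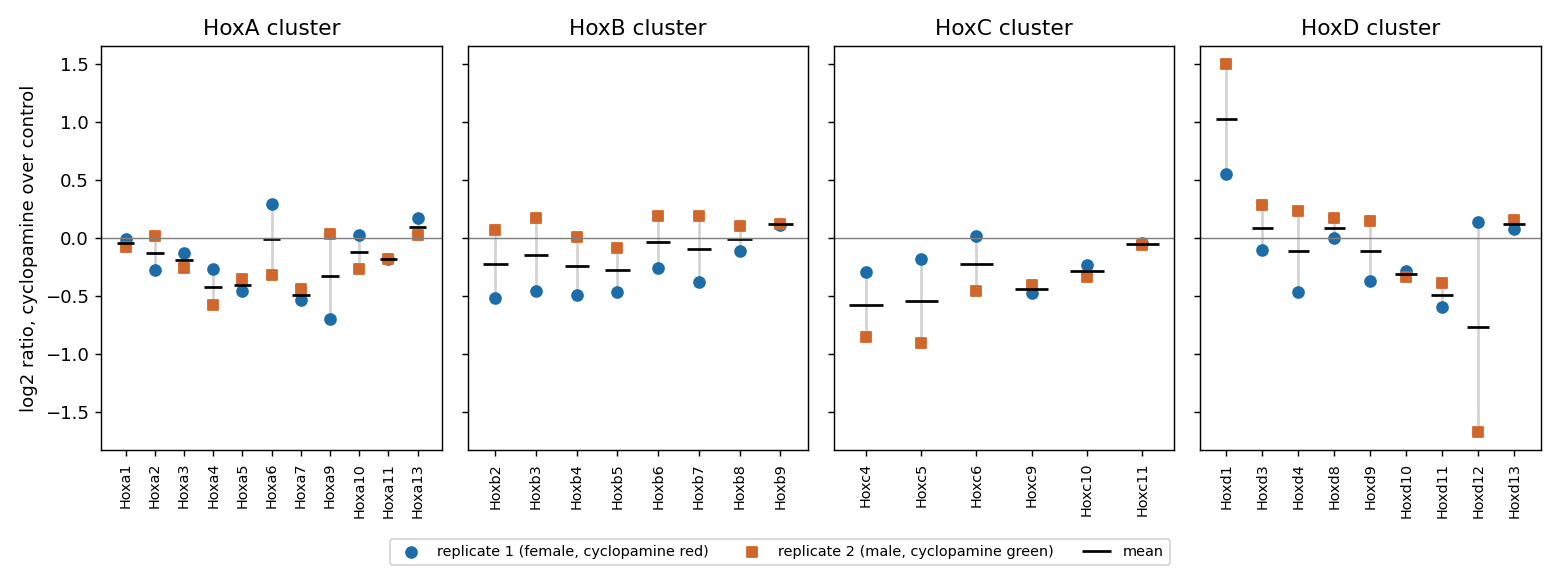
Log2 ratio of cyclopamine over control for the 34 tested Hox genes in cluster order, with replicate 1 as circles, replicate 2 as squares and the mean as a bar. Hoxd1 stands at 1.02, 14 genes have both points below 0, and HoxB genes have replicate 1 below and replicate 2 above 0 in 6 of 8 cases.

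Hoxc4, at the anterior end of HoxC, had the largest decrease among genes measured in all 4 channels. It went from 633 to 516 on replicate 1 and from 135 to 74.7 on replicate 2, and its log2 ratio averaged -0.57 ± 0.39 (SD, n = 2; limma adjusted p = 0.327). Hoxd11 went from 1159 to 769 and from 147 to 112, with a mean of -0.49 ± 0.14 (limma adjusted p = 0.465). Its dimmer probe gave log2 ratios of 0.22 and -0.19, so the probes of Hoxd11 disagreed.

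Hoxa7, a central gene of HoxA, went from 1659 to 1144 and from 239 to 176, and its log2 ratio averaged -0.49 ± 0.07 (SD, n = 2; limma adjusted p = 0.470). Hoxc9 went from 461 to 331 and from 74.1 to 55.8, a mean of -0.44 ± 0.05 (limma adjusted p = 0.553). Hoxa5 went from 682 to 497 and from 114 to 89.3, a mean of -0.40 ± 0.07 (limma adjusted p = 0.604). In each of these 3 genes the cyclopamine channel was below the control channel on both arrays and the arrays gave nearly the same ratio, but the change did not pass the test. With the length trend removed the arrays were further apart, at -0.22 and -0.41 for Hoxa7, -0.27 and -0.40 for Hoxc9 and -0.13 and -0.31 for Hoxa5, and the means were -0.31, -0.33 and -0.22. Hoxd10, Hoxc10 and Hoxb5 were also lower on both arrays, with mean log2 ratios of -0.31, -0.29 and -0.27, which were -0.23, -0.15 and -0.09 with the length trend removed.

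Besides Hoxd1, the genes higher on both arrays moved little. Hoxb9 had log2 ratios of 0.11 and 0.12, Hoxd13 0.08 and 0.16, Hoxa13 0.17 and 0.02, and Hoxd8 0.00 and 0.17. The mean log2 ratios of these 4 genes lay between 0.09 and 0.12, none past the test.

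Cluster medians, given as a description, had the same sign on both arrays in HoxA and HoxC and opposite signs in HoxB and HoxD. HoxA had median log2 ratios of -0.19 on replicate 1 and -0.26 on replicate 2, with 6 of 11 genes lower on both. HoxC had -0.21 and -0.43, with 5 of 6 lower on both and Hoxc6 (0.02 and -0.46) as the other. HoxB had -0.42 and 0.11: 7 of 8 tested genes were lower on replicate 1 and 1 of 8, Hoxb5, on replicate 2. HoxD had -0.11 and 0.16. With the length trend removed the medians were 0.08 and -0.27 for HoxA, -0.12 and 0.13 for HoxB, 0.07 and -0.43 for HoxC, and -0.04 and 0.19 for HoxD. Lower on both arrays were then 3 of 11 HoxA and 2 of 6 HoxC genes. The differences between clusters and between arrays were not tested, with 1 array per orientation.

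**Figure D4:**
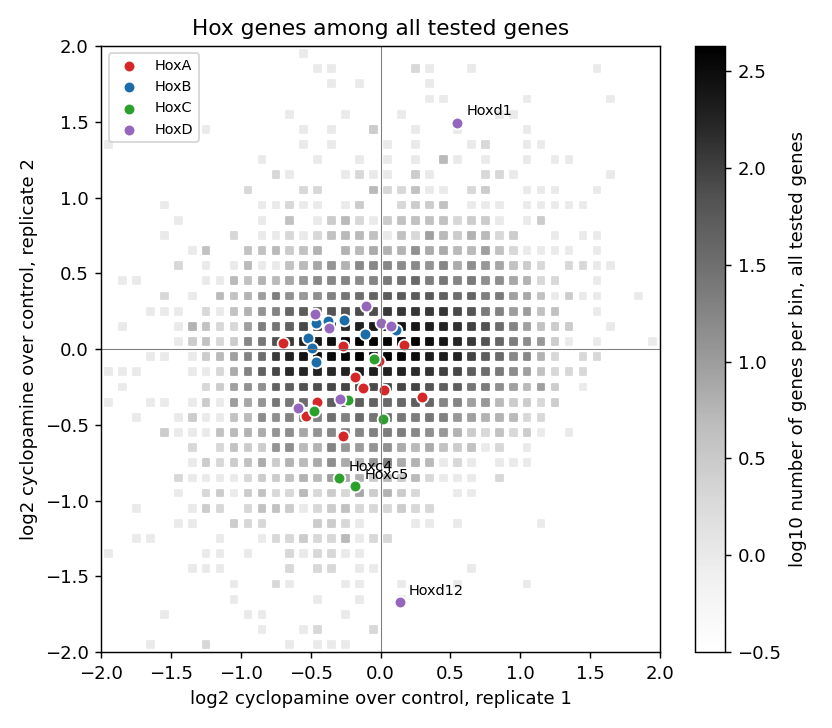
Log2 ratio of cyclopamine over control on replicate 1 (x axis) and replicate 2 (y axis); grey squares count all tested genes per bin and coloured points are Hox genes by cluster. Hoxd1 lies at 0.55 and 1.49, Hoxd12 at 0.14 and -1.67, and the other Hox genes lie inside the grey cloud.

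By position along the axis, averaged over arrays, mean log2 ratios had a median of -0.14 for anterior, -0.16 for central and -0.18 for posterior genes. On replicate 1 the medians were -0.27, -0.22 and -0.19, and on replicate 2 they were 0.02, -0.20 and -0.18, with 4 of 11 anterior and 8 of 13 posterior genes lower there; the difference was not tested. In group 10, 2 of 3 genes were lower on both arrays, and Hoxa10 had 0.02 and -0.27. In group 11, 3 of 3 were lower on both, from -0.05 for Hoxc11 to -0.49 for Hoxd11. The 2 tested genes of group 13 were higher on both, with a median of 0.11. These directions rest partly on the length trend of replicate 1: with it removed, Hoxa11 (0.11 and -0.15), Hoxc11 (0.30 and -0.02) and Hoxc10 (0.02 and -0.32) went opposite ways, and Hoxd11 (-0.38 and -0.38) and Hoxd10 (-0.13 and -0.33) were still lower on both.

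Some genes differed much between the arrays, in direction or in size. Hoxd12 had intensities of 35.2 and 38.7 in control and cyclopamine on replicate 1, and 7.49 and 2.36 on replicate 2, where the cyclopamine channel was not well above background. Hoxc5 had 24.5 and 21.6, then 7.16 and 3.83, with the same channel not well above background; it was lower on both arrays (log2 ratios -0.18 and -0.90). Both are dim probes whose replicate 2 ratio is uncertain, since its cyclopamine value was not set apart from background. With normexp the mean log2 ratio was -0.09 for Hoxd12 and -0.12 for Hoxc5, in place of -0.76 and -0.54. Hoxa4 was the third tested gene with a dim cyclopamine channel on replicate 2. Hoxa9 had 1250 and 771 on replicate 1 but 151 and 155 on replicate 2, and its second probe gave log2 ratios of -0.60 and -0.10. Hoxd4 had log2 ratios of -0.47 and 0.23.

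Of the partners and regulators of Hox genes, the 49 that were tested held 0 limma calls, where 0.867% of all tested genes were called lower and 0.439% higher, so that a count of 0 says little about these lists. All 9 TALE genes were well above background, among them Meis1 (22018 and 5633 in control; mean log2 ratio 0.09), and 8 of 9 went opposite ways on the arrays. Of 7 caudal and axial regulators 4 were tested, and Cdx1, Cdx2 and Cdx4, activators of posterior Hox genes in the embryo, were not. The orphan receptor gene Nr6a1 had the largest mean log2 ratio of these lists, 0.77 (limma adjusted p = 0.101). The 15 Polycomb genes had a median log2 ratio of 0.39 on replicate 1, the array with the length trend, and 0.00 on replicate 2. The 8 Trithorax and demethylase genes had 0.29 and 0.01. The 13 urogenital partners and targets had a median of 0.13 on replicate 1 and 0.20 on replicate 2, with 8 higher and 1, Osr1, lower on both arrays.

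**Figure D5:**
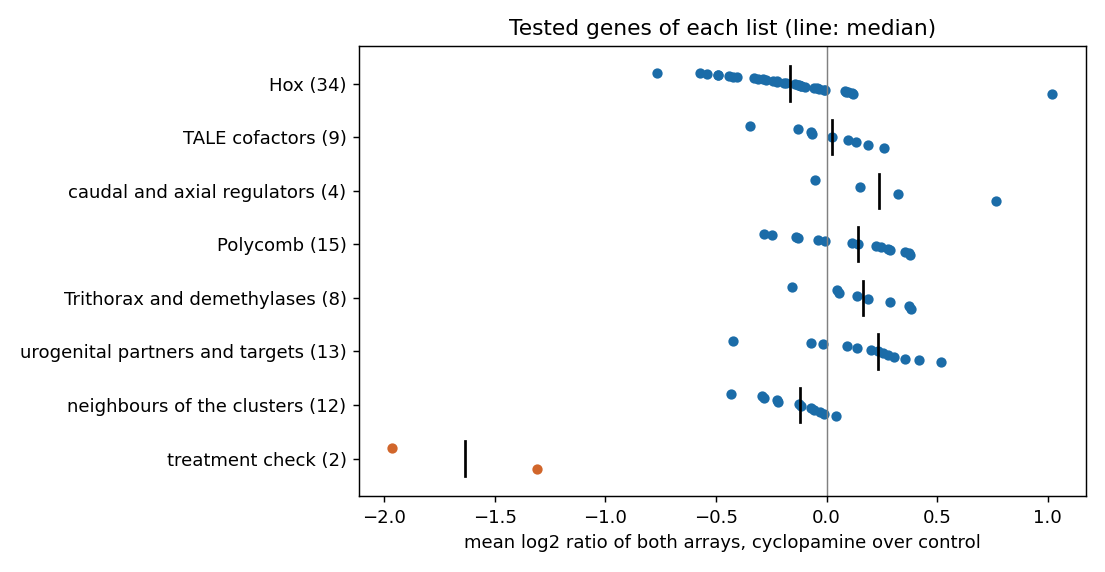
Mean log2 ratio of both arrays (x axis) for each tested gene of a list, with the number of tested genes in brackets and the median as a black line. Hox genes lie between -0.76 and 1.02, and the treatment check genes Gli1 and Ptch1 lie at -1.96 and -1.31.

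Transcripts within 100 kb of a Hox probe were read beside the clusters. Of 26 neighbouring genes 12 were tested and 0 were called by limma (0.867% of all genes lower and 0.439% higher), too few to set apart from that share, with a median mean log2 ratio of -0.12 and a range of -0.43 to 0.04. Hoxa11os, antisense to Hoxa11, had log2 ratios of -0.52 and -0.06, Hoxb5os had -0.63 and 0.20, and the brighter probe of Hoxd3os1 had -0.60 and 0.16.

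Markers of other cell types moved beside the Hox genes in places. The summed level of 5 smooth muscle markers, as percent of the 75th percentile of its channel, was 7514 in control and 7458 with cyclopamine on replicate 1, and 11797 and 7572 on replicate 2. Acta2 alone made up 3321 (replicate 1) and 6690 (replicate 2) of the control sums, with log2 ratios of -0.06 and -0.92. The 4 markers of ureteric mesenchyme and lamina propria summed to 1296 and 870, then 1208 and 782, but Ptch1, Bmp4 and Aldh1a2 among them are known to respond to SHH signaling. The other, Tbx18, had log2 ratios of 0.30 and -0.33. The 3 endothelium markers summed to 1130 in control and 1803 with cyclopamine on replicate 1, then 1800 and 1567 on replicate 2. The 5 neuron and glia markers summed to 445 and 307, then 421 and 500. Sums of the 6 urothelium markers were 9101 and 9826, then 11190 and 11945. The part of these shifts in the Hox ratios was not tested.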

How the data were processed

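RNA of 2 cyclopamine and 2 control ureter pools was hybridised to 2 two-colour Agilent arrays of the same slide and scan. The authors' deposited scanner files hold a processed intensity per spot and channel, background-subtracted and dye-normalized (linear and LOWESS) by Agilent Feature Extraction (version 12.2.0.7 in the headers, 10.7.3.1 in the submitters' processing notes). Log10 ratios in the deposited files, red over green, were read for their direction. The deposited series table holds a score per probe, a signed fold change rounded to a single decimal; it served as an alternative only. Flags per spot are also the authors' software output.

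Control spots and outlier spots (2.89% and 3.15%) were left out, and spots of a probe were averaged on the log2 scale. Log2 ratios were turned to cyclopamine over control and tested with limma 3.58.1 in R 4.3.3 (lmFit, eBayes), with Benjamini-Hochberg adjustment over 25975 probes. With 2 arrays most of the variance estimate came from the prior over all probes (52.9 degrees of freedom in all), and precision is limited by the number of arrays. The pools are separate. P-values set a change against the spread between these 2 arrays as pooled over all probes. The gene's own spread between the arrays enters them only in small part. The study's text gives neither the scale of its intensity limit nor whether its limits had to hold on each array, so its filter is approximated. The steps were tested on simulated data. Genes other than Hox were named through accessions in the RefSeq table where they matched (28757 probes). Probe positions (mm9) served to find neighbours and were not mixed with GRCm38.p6.

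Members and lists were chosen with earlier results of these data known. Named were called genes, up to 8 per direction with the largest mean change, the 5 with the largest difference between arrays, paralog groups 10, 11 and 13, genes not measured, list genes called, and Gli1, Ptch1 and Meis1. A further gene of this rule is not reported here. Hoxa4, Hoxc6, Hoxa2, Hoxb2, Hoxb3, Hoxa6, Nr6a1, Osr1, Hoxa11os, Hoxb5os, Hoxd3os1, Tbx18, Bmp4 and Aldh1a2 were named after their values were seen, and the CCAAT letters and the genes whose upstream sequence is shown were also chosen then. Alternatives changed the background correction, the probe filter, the probe rule, the variance model, the length trend, the scale and the arrays used.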

Additional observations from a re-analysis of the deposited data

Results flagged for a closer look

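For 6 Hox genes the arrays went opposite ways by at least 1.5-fold between them, which compares females with males, a dye orientation with its swap, and 1 pool pair with another at once. The differences (replicate 1 minus replicate 2, log2) were 0.61 for Hoxa6, -0.74 for Hoxa9, -0.59 for Hoxb2, -0.63 for Hoxb3, and -0.70 for Hoxd4. For Hoxd12 the value was 1.80, which is uncertain since its cyclopamine channel on replicate 2 was not well above background. With normexp its mean log2 ratio was -0.09 in place of -0.76. The differences were not tested, since each orientation has 1 array. Of all tested genes 42.4% went opposite ways. The share of them past the 1.5-fold limit was not counted, so the 6 cannot be set against it. The second probe of Hoxa9 was lower on both arrays (-0.60 and -0.10), and that of Hoxb3 had a difference of -0.45. With the length trend removed the arrays were closer for Hoxa9 (-0.42 and 0.06), Hoxb2 (-0.18 and 0.11) and Hoxd4 (-0.25 and 0.24). They were further apart for Hoxa6, Hoxb3 and Hoxd12. The 1.5-fold limit, the same for genes and for medians of clusters, classes and paralog groups, was chosen after the values were seen. A first limit, based on the SD of each array and looser for medians than for genes, had picked out the median of paralog group 6 alone (0.02 and -0.32), which the 1.5-fold limit does not. A second limit, on the share of a cluster's members that went opposite ways, had added the HoxB median (-0.42 and 0.11); it had been set with that value in view and was dropped for this reason.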

How the results depend on the processing

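The Hox result was recomputed under 8 other analyses with a test and further filters and scales. The count of Hox genes called lower was 0 in each of them. The count called higher, 1 in the main analysis, was 0 with normexp and an offset of 50, 0 with the series values and 0 with each of the 4 channels taken as a sample (no replicate block). The pairing of the channels on an array is part of the main analysis. Lower on both arrays were 8 genes with the length trend removed in place of 14, and the Hox median was then -0.035 in place of -0.16. Opposite ways on the arrays were 7 genes with the series values in place of 15, where rounding put 12 genes in no direction. With a single array the study filter passed 1 lower gene without replicate 1 and 2 without replicate 2 (range 1 to 2), in place of 0 on both; no limma test is possible there. Of the named genes' log2 ratios under these analyses 155 kept their side of the threshold and direction where called, and 3, all of Hoxd1, lost the call. Hoxc11, never called, changed sign in 1. A common control 75th percentile and leaving out genes dim in a channel were alternatives chosen after seeing the data. Signal over background limits Hoxd1, Hoxd12, Hoxc5 and Hoxa4.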

Other observations

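Between the control pools, relative to the 75th percentile of each, Hox genes were lower on replicate 2 than on replicate 1 by a median log2 difference of -0.28, beside 0.04 over all tested genes. Sex, dye and array cannot be told apart in this difference, and it was not tested.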
